A study of Mus musculus with 6 samples.

Results

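The genes described here are 10 genes of liver iron handling: the hepcidin genes Hamp and Hamp2, the iron sensors Hfe and Tfr2, the plasma carrier Trf, the importers Tfrc and Slc11a2, the exporter Slc40a1 and the ferritin genes Fth1 and Ftl1. They were chosen by symbol, with earlier results of these data known. Each was read by 1 row of the array, and together they are 10 of the 19505 genes measured. The livers came from male C57BL/6 mice aged 8 weeks, 3 wild type (WT) and 3 with Hmgb2, a gene of a DNA-bending chromatin protein, knocked out (HMGB2-KO). Each liver was read on 1 Clariom S array, a single-colour Affymetrix array. The labels name no treatment, iron diet or surgery for these animals, and they do not say how the knockout was made or whether it was limited to 1 cell type. They number the WT animals 38, 40 and 31 (replicates 1 to 3) and the HMGB2-KO animals 39, 41 and 32, so that each genotype has 2 animals numbered 38 to 41 and 1 numbered 31 or 32. What these number ranges stand for is not stated. The question put to the 10 genes was whether they differed between the genotypes, and, as a check within the groups, between the number ranges.

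Hepcidin, the product of Hamp, is a peptide hormone that hepatocytes release when iron stores or inflammatory signals rise. It binds ferroportin, the exporter encoded by Slc40a1, and has it degraded, which keeps iron inside macrophages, hepatocytes and gut cells. Hepatocytes sense iron on transferrin through HFE and transferrin receptor 2, and BMP signalling through SMAD proteins sets the level of Hamp transcription, to which interleukin-6 and STAT3 add. Iron regulatory proteins act on a second level, by binding the transcripts of ferritin, ferroportin, transferrin receptor 1 and DMT1. That control acts on translation of ferritin and ferroportin, which transcript values do not show.

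All values are log2 differences from a baseline of each array row, which the deposited table does not state, after the median of each array was subtracted. Levels of different genes can therefore not be compared, and presence of a gene cannot be read from its value. Before centring, the array of WT replicate 2 had a median of 0.26, against -0.05 to 0.01 on the other 5 arrays. After centring, the 8 hepatocyte markers had a median of -0.16 in that liver and of 0.02 to 0.07 in the others. The knocked-out gene itself was at 0.47, 0.36 and 0.42 in WT and at -0.66, -0.33 and -0.43 in HMGB2-KO, on the side its label gives in every liver. Its log2 difference of -0.89 was nevertheless not called (limma adjusted p = 0.645). Nothing in the labels says whether animals were housed or killed together, so p-values measure the spread between these livers only.

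**Figure D1:**
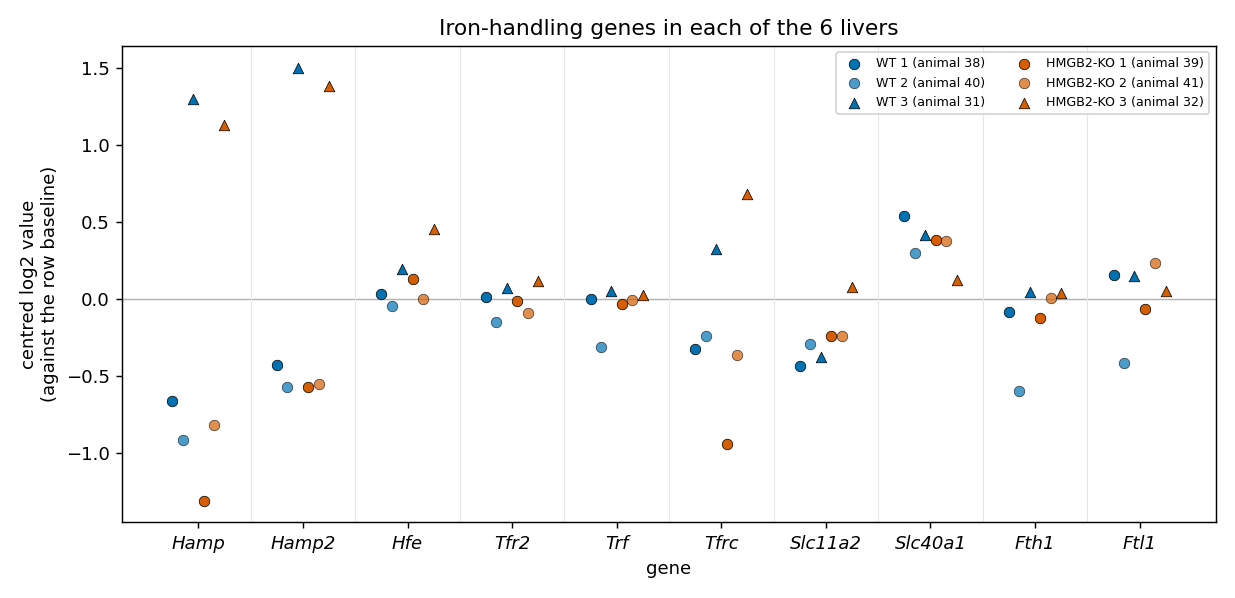
Centred log2 value of the 10 iron-handling genes (horizontal axis) in each liver, with WT in blue and HMGB2-KO in orange, and with triangles for animals 31 and 32 and circles for animals 38 to 41. In Hamp and Hamp2 both triangles lie above 1, and all 4 circles lie below -0.4. In the other genes the livers are closer together.

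The hepcidin genes Hamp and Hamp2 split the livers by animal number and not by genotype. Hamp (row TC0700002783.mm.2) was at -0.66, -0.92 and 1.30 in WT replicates 1 to 3 and at -1.31, -0.81 and 1.13 in HMGB2-KO replicates 1 to 3. Hamp2 (row TC0700002781.mm.2), the second mouse hepcidin gene, was at -0.42, -0.57 and 1.50 in WT and at -0.57, -0.55 and 1.38 in HMGB2-KO. In both genes the genotypes overlapped, whereas the livers of animals 31 and 32 lay above all 4 livers of animals 38 to 41. Over all 6 livers the SD of Hamp was 1.13 and that of Hamp2 was 1.02, larger than the SD of 99.2% and 99.0% of all genes. The 2 genes are close copies, and their rows may read each other's transcript, so they are not independent measurements.

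Between the number ranges, with genotype in the model, Hamp rose by 2.14 in animals 31 and 32 (SE 0.18, 95% confidence interval 1.72 to 2.57, adjusted p = 0.0236 in limma). That is 4.41-fold (3.29 to 5.92). Hamp2 rose by 1.97 (SE 0.12, interval 1.67 to 2.27, adjusted p = 0.00775 in limma), or 3.92-fold. The gap between replicate 3 and the mean of replicates 1 and 2 was 2.09 in WT and 2.19 in HMGB2-KO for Hamp, and 2.00 and 1.94 for Hamp2. The difference between these gaps, tested as an interaction, was 0.10 for Hamp and -0.06 for Hamp2, with limma adjusted p = 1.00 for both. The exact permutation test within genotypes gave p = 0.111 for each gene, the smallest that its 9 arrangements allow. With 1 liver left out the Hamp difference lay between 2.03 and 2.24 and that of Hamp2 between 1.94 and 2.00. The Hamp call was kept only without HMGB2-KO replicate 2 (limma adjusted p = 0.0429). Without WT replicates 1, 2 and 3 its limma adjusted p was 0.05004, 0.0546 and 0.195. Without HMGB2-KO replicates 1 and 3 it was 0.0738 and 0.203. For Hamp2 the adjusted p in limma was 0.110 when WT replicate 3 was left out, 0.0641 when HMGB2-KO replicate 1 was, and 0.143 when HMGB2-KO replicate 3 was, and the call held when any of the other 3 livers was.

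Between the genotypes, Hamp averaged -0.09 ± 1.21 over the WT livers and -0.33 ± 1.29 over the knockouts (SD, n = 3 each). The log2 difference of -0.24 had an SE of 0.75 and a 95% confidence interval of -1.98 to 1.51. For Hamp2 the means were 0.17 ± 1.16 and 0.09 ± 1.12 (SD, n = 3 each), and the difference was -0.08 (SE 0.68, interval -1.67 to 1.51). Limma's adjusted p was 0.999 for both, and exact two-sided permutation gave p = 0.6 for both. With the number range in the model the errors were smaller. The Hamp difference of -0.24 then had an SE of 0.17 and an interval of -0.64 to 0.16, and that of Hamp2 an SE of 0.12 and an interval of -0.36 to 0.20. Within animals 38 to 41 the genotype difference of Hamp was -0.27, and between animals 32 and 31 it was -0.17. Neither design called a genotype difference in either gene (adjusted p = 0.950 and 0.953 in limma with the range as a term).

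The promoters of the 2 hepcidin genes are shown because these genes moved together and because the known BMP and STAT3 inputs act there. Each line gives the 250 bases before the RefSeq start site, on the minus strand of build GRCm38.p6, at chr7:30944030-30944279 for Hamp and chr7:30924182-30924431 for Hamp2. Capitals mark GGCGCC, the core of the BMP response element, and TTCNNNGAA, the STAT motif.
Hamp: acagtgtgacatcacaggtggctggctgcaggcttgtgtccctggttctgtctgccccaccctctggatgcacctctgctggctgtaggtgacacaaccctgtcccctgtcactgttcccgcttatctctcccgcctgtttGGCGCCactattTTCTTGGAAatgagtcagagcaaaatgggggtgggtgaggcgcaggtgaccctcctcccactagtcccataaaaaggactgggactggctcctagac
Hamp2: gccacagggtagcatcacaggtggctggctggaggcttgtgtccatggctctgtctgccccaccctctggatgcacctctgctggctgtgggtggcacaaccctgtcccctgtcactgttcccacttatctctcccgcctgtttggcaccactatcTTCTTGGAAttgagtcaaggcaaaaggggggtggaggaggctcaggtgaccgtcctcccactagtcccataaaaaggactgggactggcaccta
In Hamp the letters GGCGCC begin 109 bases before the start and TTCTTGGAA 97 bases before it, with no overlap. In Hamp2 the letters TTCTTGGAA begin 94 bases before the start and GGCGCC is not in this window. Aligned end to end, 227 of 247 bases were identical (91.9%), with 20 substitutions. One of them, G145A (counted from the 5′ end of the Hamp line, Hamp base first), lies inside the GGCGCC match, and none lies inside the STAT motif. Both motifs read the same on either strand. GGCGCC was found before 9.59% of 32851 RefSeq starts, TTCNNNGAA before 7.02% and both before 0.368%. Promoters were listed for 7 of the 10 genes, from 11 starts, and not for Trf, Slc40a1 and Slc11a2. Besides Hamp, GGCGCC was present before 1 start of Tfrc, and TTCNNNGAA was present in no further listed gene than Hamp and Hamp2.

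Neither sensor gene passed a test in either comparison. Hfe, the MHC class I-like protein that is altered in hereditary haemochromatosis, was at 0.03, -0.04 and 0.20 in WT and at 0.13, 0.00 and 0.46 in HMGB2-KO. The genotypes overlapped, with a log2 difference of 0.13 (SE 0.16, interval -0.23 to 0.49). It was 0.0042 without HMGB2-KO replicate 3, the liver with the highest value, and 0.23 without HMGB2-KO replicate 2. The SD of Hfe over the livers was larger than that of 44.2% of genes. After centring, animals 31 and 32 lay above the other 4 livers, by 0.30 (SE 0.13, interval -0.01 to 0.60, limma adjusted p = 0.609). Without centring, WT replicate 2 lay above WT replicate 3. Tfr2, the iron-sensing receptor of hepatocytes, was at 0.01, -0.14 and 0.07 in WT and at -0.01, -0.09 and 0.12 in HMGB2-KO. Its 6 values spanned 0.26, and its SD was larger than that of only 7.65% of genes. The genotype difference was 0.02 (SE 0.13, interval -0.27 to 0.32) and the range difference was 0.15 (SE 0.13), neither past the test.

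Among carrier and importers, Tfrc stood apart. Tfrc, which encodes transferrin receptor 1 and brings transferrin-bound iron into cells, was at -0.32, -0.24 and 0.33 in WT and at -0.94, -0.36 and 0.68 in HMGB2-KO. The highest values were again those of animals 31 and 32, above all 4 others. The range difference was 0.97 (SE 0.23, interval 0.42 to 1.52), or 1.96-fold. It ranked 272 by p among all genes and did not pass (adjusted p = 0.306 in limma). The gap was 0.61 in WT and 1.33 in HMGB2-KO, and the interaction test gave a difference of 0.73 (adjusted p = 1.00 in limma). Between genotypes the difference was -0.13 (SE 0.39, interval -1.03 to 0.78), with overlap. Leaving out single livers gave -0.57 at the lowest and 0.24 at the highest. Its range difference was 0.61 when HMGB2-KO replicate 3 was left out.

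Trf, which encodes transferrin, the plasma iron carrier made by hepatocytes, was at 0.00, -0.31 and 0.05 in WT and at -0.03, -0.00 and 0.03 in HMGB2-KO. After centring, the 5 livers other than WT replicate 2 lay within a narrow band. Without centring, WT replicate 2 lay among them. The genotype difference was 0.08 (SE 0.14, interval -0.24 to 0.40), and -0.03 without WT replicate 2. Slc11a2, which encodes the divalent metal transporter DMT1, was at -0.44, -0.29 and -0.38 in WT and at -0.24, -0.24 and 0.08 in HMGB2-KO. After centring it was the only one of the 10 genes whose genotypes did not overlap, with each HMGB2-KO liver above each WT liver. Without centring they overlapped, as WT replicate 2, with its array median of 0.26, then lay above HMGB2-KO replicates 1 and 2. The difference was 0.24 (SE 0.14, interval -0.08 to 0.55), with a limma adjusted p = 0.994. On the centred values exact two-sided permutation gave p = 0.1, and 3 livers against 3 cannot give a smaller one. Of all genes, 9.67% likewise had genotypes that did not overlap, and 4.32% lay higher in HMGB2-KO in this way, so 1 gene in 10 is near the background. The highest value was that of HMGB2-KO replicate 3, and without it the difference was 0.13.

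The exporter Slc40a1, which encodes ferroportin and is the target of hepcidin, was at 0.54, 0.30 and 0.42 in WT and at 0.39, 0.38 and 0.12 in HMGB2-KO. The genotypes overlapped and the difference was -0.12 (SE 0.14, interval -0.44 to 0.19). HMGB2-KO replicate 3, with the second highest Hamp value, had the lowest Slc40a1 value, while WT replicate 3, with the highest Hamp value, lay inside the spread of the others. The range difference was -0.13 (SE 0.14, interval -0.47 to 0.20). Both rested on HMGB2-KO replicate 3, without which the genotype difference was -0.037 and the range difference -0.0048. Whether ferroportin protein differed cannot be read from these data.

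The ferritin genes encode the heavy and light subunits of the iron storage shell. Fth1 was at -0.08, -0.59 and 0.05 in WT and at -0.12, 0.01 and 0.04 in HMGB2-KO. Ftl1 was at 0.16, -0.41 and 0.15 in WT and at -0.06, 0.24 and 0.05 in HMGB2-KO. In both, WT replicate 2 had the lowest value, in the liver whose hepatocyte markers also lay lowest after centring. The genotype differences of 0.18 for Fth1 (SE 0.18, interval -0.24 to 0.61) and 0.11 for Ftl1 (SE 0.19, interval -0.32 to 0.54) did not pass. Without that liver they were -0.01 and -0.08. The range differences were 0.24 (SE 0.18) and 0.12 (SE 0.20).

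**Figure D2:**
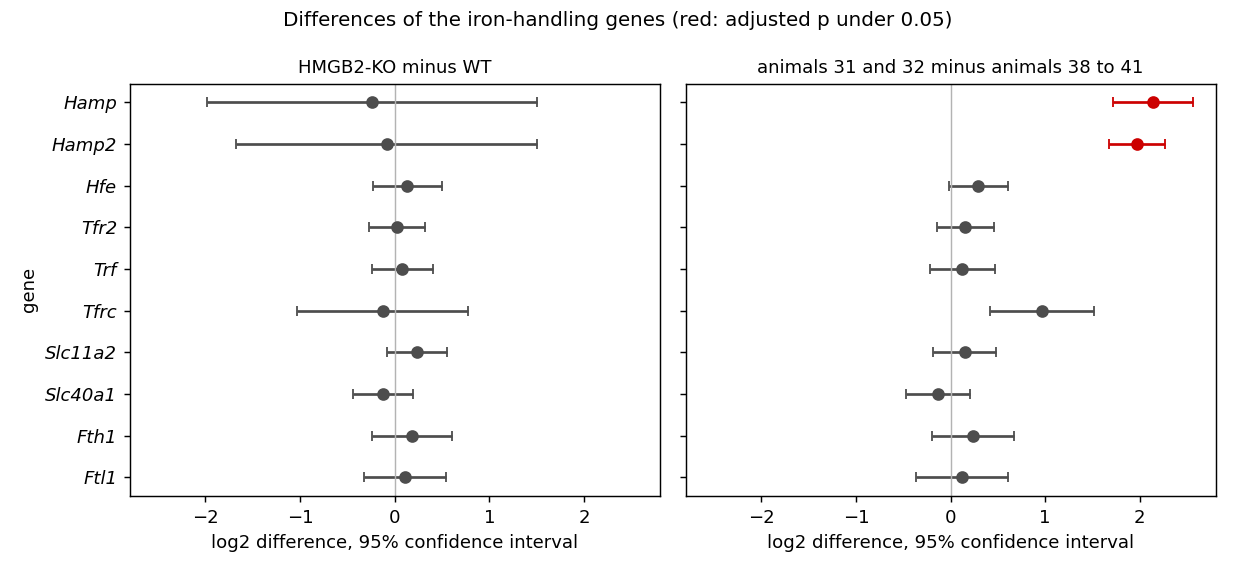
Log2 differences (horizontal axis) of the 10 genes with 95% confidence intervals from limma, between genotypes (left) and between animal number ranges with genotype in the model (right). On the left every interval spans 0. On the right Hamp at 2.14 and Hamp2 at 1.97, in red, passed the adjusted threshold, and Tfrc at 0.97 did not.

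Over all 10 genes, none passed the adjusted threshold between the genotypes, and 0 of 10 had an unadjusted p under 0.05 in limma. Of all 19505 genes 0% passed and 3.68% had an unadjusted p under 0.05 (717 genes). The smallest limma adjusted p of any gene was 0.350. The knocked-out gene Hmgb2 was not called either, so a count of 0 does not show that the genotypes were alike. The median log2 difference of the 10 was 0.05, against -0.00 for all genes, with 6 genes on the higher and 4 on the lower side. With 1 liver left out that median lay between -0.06 (without WT replicate 2) and 0.21 (without HMGB2-KO replicate 1). Without centring every difference is lower by 0.12, and the median of the 10 is -0.07. Between the number ranges 2 of the 10 genes passed, where 0.0410% of all genes did (8 genes). On the higher side 0.0154% passed (3 genes, Hamp and Hamp2 among them). Hamp and Hamp2 are not independent measurements, and the 10 genes were chosen with earlier results of these data known. Whether iron genes stand out among all genes was therefore not tested. At an unadjusted p under 0.05 the count was 3 of 10, all higher in animals 31 and 32, against 8.49% of all genes in either direction and 3.90% on the higher side. Of the 10 genes, 7 lay higher in animals 31 and 32 without overlap, which 10.4% of all genes did, and 19.7% did not overlap in either direction. These were Hamp, Hamp2, Hfe, Tfr2, Trf, Tfrc and Fth1, all on the centred values. For Hfe, Tfr2, Trf and Fth1 the gap to the nearest other liver was small. Without centring, Hfe, Tfr2 and Trf overlapped. The median range difference of the 10 genes was 0.20, against -0.00 for all genes. Without centring every range difference is lower by 0.09, and that median is 0.11.

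Other genes of iron biology were taken from 5 lists, in which 88 of 94 entries were measured. Between the genotypes 0 of 88 passed after adjustment, where 0% of all genes did. At an unadjusted p under 0.05 in limma there were 0 of 88, against 3.68% of all genes. The medians were 0.02 for hepcidin regulation (26 genes), 0.06 for iron and heme transport (23), 0.05 for iron sensing and ferritin handling (8), 0.14 for heme synthesis and breakdown (14) and 0.07 for iron-sulfur cluster assembly (17). Over the 88 genes, 53 lay on the higher side, where 9664 of all 19505 genes did, and 35 on the lower side. Their median was 0.05. Without centring that median was -0.07.

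In hepcidin regulation the smallest p values were those of Erfe (log2 difference -0.43, SE 0.20), the hormone by which erythroblasts repress hepcidin, Atoh8 (0.32, SE 0.19), a transcription factor of the BMP response, and Acvr1 (-0.23, SE 0.13), a BMP type I receptor. In transport they were those of the metalloreductase Steap4 (0.61, SE 0.28, or 0.27 without HMGB2-KO replicate 2), the lipocalin receptor Slc22a17 (-0.18, SE 0.14) and the haptoglobin-haemoglobin receptor Cd163 (0.29, SE 0.25). In iron sensing they were those of Ireb2 (0.22, SE 0.17), which encodes iron regulatory protein 2, its ubiquitin ligase adaptor Fbxl5 (0.12, SE 0.11), and mitochondrial ferritin Ftmt (-0.14, SE 0.17). In heme metabolism they were those of biliverdin reductase Blvra (0.31, SE 0.16), Cpox (0.25, SE 0.14) and ferrochelatase Fech (0.25, SE 0.17). In iron-sulfur cluster assembly they were those of Nubpl (0.29, SE 0.15), the co-chaperone Hscb (-0.73, SE 0.45) and glutaredoxin Glrx5 (0.26, SE 0.16). Every one of these had a limma adjusted p of 0.994. Many of these differences rested on single livers. Hscb lay at -0.26 when HMGB2-KO replicate 3 was left out and at -1.10 when HMGB2-KO replicate 2 was, and Ftmt at 0.02 when WT replicate 1 was. Without WT replicate 3, Cd163 was at 0.09, Ireb2 at 0.07, Erfe at -0.27, Blvra at 0.19 and Fech at 0.15. Without HMGB2-KO replicate 2, Cd163 was at 0.11 and Atoh8 at 0.21. Slc22a17 was at -0.08 without HMGB2-KO replicate 3, Nubpl at 0.16 without HMGB2-KO replicate 1 and Glrx5 at 0.14 without WT replicate 2.

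Between the number ranges none of the 88 genes passed after adjustment either. At an unadjusted p under 0.05 there were 15 of 88, 6 higher and 9 lower in animals 31 and 32, against 8.49% of all genes. Of these 15, 8 were in iron and heme transport, 5 in hepcidin regulation, 1 in iron sensing, 1 in iron-sulfur cluster assembly and 0 in heme metabolism. The genes named next were chosen after their values were seen, and none passed the adjusted threshold. Hjv, which encodes hemojuvelin, the BMP co-receptor that hepcidin expression needs, was at -0.58, -0.71 and 0.30 in WT and at -0.22, -0.44 and 0.09 in HMGB2-KO. Its range difference was 0.68 (SE 0.17, limma adjusted p = 0.344), on the same side as Hamp. Il6ra, the interleukin-6 receptor subunit, was at 1.27, 1.95 and -0.43 in WT and at 1.20, 1.81 and 0.14 in HMGB2-KO, a range difference of -1.70 (SE 0.28, limma adjusted p = 0.137) on the opposite side. Slc39a14, which encodes ZIP14, the importer of iron not bound to transferrin, was at 0.28, 0.63 and -0.76 in WT and at 0.02, 0.27 and -0.73 in HMGB2-KO, a range difference of -1.04 (SE 0.17, limma adjusted p = 0.129).

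The BMP ligands Bmp6 and Bmp2, made by sinusoidal endothelium, had range differences of -0.22 (SE 0.16) and -0.24 (SE 0.17). Among targets of BMP signalling, Id1 was at -0.42 (SE 0.17), Smad7 at -0.05 (SE 0.13), Smad6 at 0.16 (SE 0.18) and Atoh8 at -0.21 (SE 0.19). Tmprss6, the protease that cleaves hemojuvelin, was at 0.10 (SE 0.13). None of these 7 genes passed, and Id1 lay opposite to Hamp. In hepcidin regulation, 2 genes lay higher and 3 lower at an unadjusted p under 0.05 in limma. Besides Hjv, Il6ra and Id1 these were Fgl1 at 0.41 (SE 0.16) and Smad4 at -0.40 (SE 0.13). Neither passed after adjustment. Of the iron regulatory proteins, Ireb2 was at -0.37 (SE 0.12) and Aco1 at 0.13 (SE 0.14), again without passing.

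**Figure D3:**
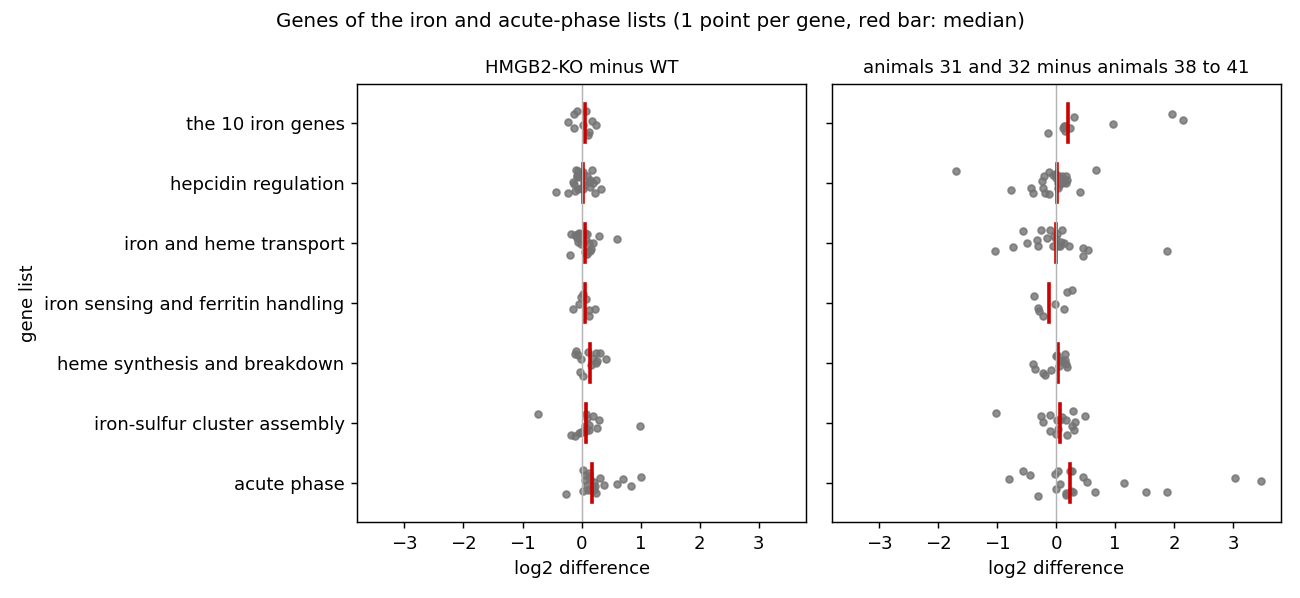
Log2 differences (horizontal axis) of the genes in 7 lists (vertical axis), between genotypes (left) and between animal number ranges (right), with 1 point per gene and a red bar at each median. Between genotypes the medians lie from 0.02 to 0.17. Between ranges Hamp and Hamp2 stand near 2, and the acute-phase list reaches from -0.80 to 3.47.

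Hamp is also a gene of the acute-phase response, so 22 acute-phase genes were set beside it. Between the genotypes 21 of 22 lay on the higher side, where 9664 of all 19505 genes did. The median of the 22 was 0.17, and 0 had an unadjusted p under 0.05 in limma, against 3.68% of all genes. Without centring every genotype difference is lower by 0.12. The smallest p values after Steap4 were those of Saa4 (0.39, SE 0.22) and Serpina3n (0.21, SE 0.14), which were at 0.18 and 0.09 without WT replicate 1. By liver, the median over the 22 genes lay at -0.58, -0.57 and -0.61 in WT and at -0.29, -0.35 and -0.27 in HMGB2-KO. Without centring these medians overlapped, with WT replicate 2 above every HMGB2-KO liver, though barely above HMGB2-KO replicate 3. Between the number ranges 0 of 22 passed after adjustment, and 9 of 22 had an unadjusted p under 0.05 in limma. Of these 9, 7 lay higher and 2 lower in animals 31 and 32. Of all genes, 8.49% had such a p in either direction and 3.90% on the higher side. The differences of the 22 genes reached from -0.80 to 3.47. The genes named next were chosen after their values were seen, Saa1 and Lcn2 from the higher side. Saa1, a serum amyloid gene, was at -4.95, -4.27 and -2.48 in WT and at -4.70, -4.04 and -0.43 in HMGB2-KO, a range difference of 3.03 (SE 0.43, limma adjusted p = 0.104). Lcn2, which encodes an iron-siderophore binding lipocalin, had a range difference of 1.88 (SE 0.27, adjusted p = 0.104 in limma). The STAT3 target Socs3 was at -0.03 (SE 0.22) and Stat3 itself at 0.03 (SE 0.13).

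The 6 other genes called between the number ranges were Nr1d1, Nr1d2, Npas2, Angptl4, Slc25a47 and Olfr1287. Nr1d1, the clock repressor REV-ERB alpha, was at 3.27, 3.03 and -1.57 in WT and at 2.88, 2.91 and -1.52 in HMGB2-KO, a range difference of -4.56 (SE 0.14, limma adjusted p = 0.000271). It separated the same livers as Hamp, in the opposite direction. The part of clock genes in the hepcidin difference was not tested, and the labels do not give the hour at which each liver was taken. Among 847 genes whose SD over the livers was at least 0.5 times that of Hamp, the 3 whose values were most like those of Hamp were Hamp2 (Pearson r = 0.988 over 6 livers), Dhtkd1, a mitochondrial dehydrogenase (r = 0.983), and the clock activator Npas2 (r = 0.981). Each r rests on the split of the livers by animal number, which all of these genes share.

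**Figure D4:**
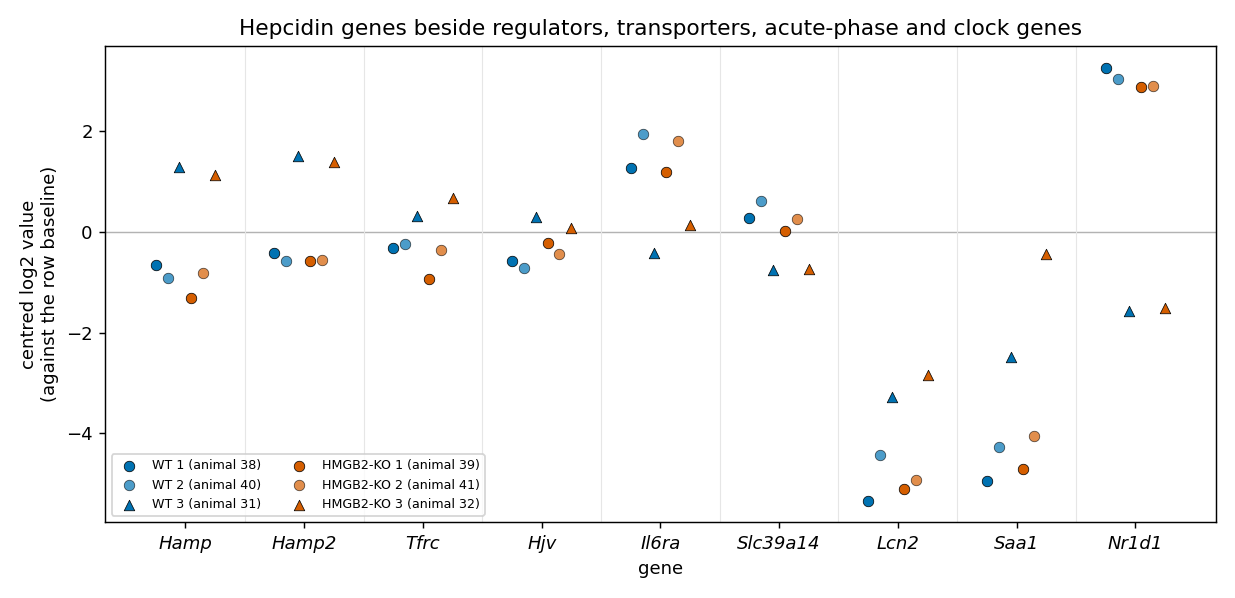
Centred log2 value (vertical axis) of Hamp, Hamp2, Tfrc and 6 further genes in each liver, with WT in blue, HMGB2-KO in orange, triangles for animals 31 and 32 and circles for animals 38 to 41. Hjv, Lcn2 and Saa1 have both triangles above the circles, as Hamp and Hamp2 do, and Il6ra, Slc39a14 and Nr1d1 have both below. Positions of different genes on the axis are not comparable levels.

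In whole liver, fewer cells of a type and less RNA per cell cannot be told apart. Markers of the other cells that carry iron genes were therefore read in the same fits. Of 11 measured Kupffer cell markers 11 lay higher in animals 31 and 32, where 9750 of all 19505 genes did. Their median range difference was 0.12. By liver their median was 0.27 to 0.51 in animals 38 to 41 and 0.46 to 0.73 in animals 31 and 32. Without centring every range difference is lower by 0.09, and not all 11 then lay higher. The 10 sinusoidal endothelial markers had a median range difference of 0.13 and the 6 measured erythroid markers one of 0.06. Hepatocyte markers, the cells that make hepcidin, had a median range difference of 0.09, with 7 of 8 higher. The 8 neutrophil, 8 stellate cell and 5 lymphocyte markers had medians of 0.03, 0.03 and -0.16. No marker in these lists passed after adjustment in limma. At an unadjusted p under 0.05 in limma there were 4 markers, against 8.49% of all genes. They were 1 of 11 Kupffer, 2 of 10 endothelial and 1 of 8 stellate cell markers. The part of these cell types in the hepcidin difference was not tested. Between the genotypes the Kupffer markers had a median difference of 0.18 (10 of 11 higher). The endothelial markers had one of 0.07 and the erythroid markers one of -0.11. Without centring each of these medians is lower by 0.12. Again no marker passed the adjusted threshold. Of the 10 endothelial markers 2 had an unadjusted p under 0.05 in limma, against 3.68% of all genes.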

How the data were processed

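Liver RNA of 6 mice was read on Clariom S arrays after Trizol extraction and biotin labelling, per the labels' protocols. The deposited values were taken as log2 and are relative to a baseline of each row. The steps by which the authors summarized probes, normalized arrays and set that baseline were not given in the sources used here. Of 22206 rows, 19572 have 1 gene symbol in the platform annotation, 0 have several and 2634 have none, and 0 columns were left unused. Each array was centred on its median. Of a gene's rows the one with the highest mean was kept (55 genes had several), which left 19505 genes. Limma 3.58.1 in R 4.3.3 fitted genotype alone, and genotype with the animal number range (31 and 32 against 38 to 41), two-sided, with Benjamini-Hochberg adjustment over all genes and a threshold of 0.05. The interaction of both was added after the data were seen. Exact permutation tests ran over livers, with 20 arrangements of genotype and 9 of range within genotype. The number of arrays, 3 per genotype, limits the precision, and read depth does not apply. The limma fits, and not the permutation tests, were tested on simulated data with independent normal noise and planted differences. No number range effect was simulated beside the planted genotype differences. The genotype fit was therefore not checked under the spread between ranges seen in Hamp. Promoters came from RefSeq (GRCm38.p6) and were aligned with Biopython 1.88.

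Genes named were the 10 genes, the 3 of each list with the smallest genotype p, the 3 most like Hamp, and Hmgb2. The members and lists were chosen with earlier results of these data known. Others named are marked as chosen after their values were seen, as were the BMP, clock and acute-phase genes given by range. Alternatives tried were no centring, quantile normalization, the mean of a gene's rows, no moderation, array weights, no olfactory or vomeronasal receptor rows, each liver left out, the replicate number or number range as a factor, and animals 38 to 41 alone.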

Additional observations from a re-analysis of the deposited data

Results flagged for a closer look

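Among the 4 livers of animals 38 to 41, Trf was at -0.31 in WT replicate 2, and the nearest other liver was at -0.03. That gap is 0.88 of the range of the 4 values, above Dixon's 95% critical value for 4 values. It appears only after centring, which subtracted an array median of 0.26 from WT replicate 2. Without centring that liver was not the lowest of the 4. Chance flags about 1 in 20 groups, and 10 genes were looked at in this way. In the other 2 livers, of animals 31 and 32, Trf was at 0.05 and 0.03.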

How the results depend on the processing

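The count of genes called between genotypes, over all genes, the 10 iron genes and the 88 listed genes, was 0 under every alternative run. Values as deposited moved the median of the 88 genes to -0.066. They put Trf at -0.037, Tfr2 at -0.094 and Ftl1 at -0.0094, against centred differences above 0 that did not pass. With 1 liver left out, the genotype difference ranged from -0.97 to 0.46 for Hamp, -0.73 to 0.58 for Hamp2, -0.57 to 0.24 for Tfrc, -0.031 to 0.15 for Trf, -0.038 to 0.072 for Tfr2, -0.0091 to 0.31 for Fth1, -0.080 to 0.20 for Ftl1 and -0.27 to 0.021 for Ftmt. None of these was called. Between number ranges the count of iron genes called was 2 in 5 of the 6 alternatives that keep all livers, namely no centring, quantile normalization, mean of rows, array weights and no receptor rows. It was 0 without moderation, where no gene of the array passed (Hamp adjusted p = 0.460, Hamp2 0.292). With 1 liver left out it ranged from 0 to 2. The range difference then lay between -0.013 and 0.32 for Slc11a2 and between -0.037 and 0.28 for Ftl1. The count over all genes, 8, was 22 with quantile normalization and with array weights, and 1 to 12 with 1 liver left out. Same-numbered livers of the 2 genotypes had deviations correlated at 0.04, 0.13 and 0.29, so the numbers were not taken as pairs, and HMGB2-KO replicate 1 correlated best with WT replicate 2. With the replicate block 0 genes were called between genotypes, over all genes and among the 10. The cause of these changes was not tested.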
